A study of Mus musculus with 12 samples.

Results

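The comparison set plasmid-transfected against siRNA-transfected cells, taking as members all 12 of the 12 libraries of the series by the transfection that each label names. Of these, 6 came from cells that received a plasmid and 6 from cells that received an siRNA. All were RNA-seq libraries of the mouse small cholangiocyte cell line (SMCC), a line of bile duct epithelial cells. The plasmid coded for eGFP (eGFP, a fluorescent protein used as the control, 3 libraries) or for S45Y (3 libraries), a form of β-catenin that is constitutively active because a residue that marks it for degradation is changed. The siRNA was a control (si-CTL, 3 libraries) or was directed against Ctnnb1, the gene of β-catenin (si-Ctnnb1, 3 libraries). The plasmids were delivered with Lipofectamine 3000 and the cells were transfected for 48 hr, whereas the siRNAs were delivered with Lipofectamine RNAiMAX for 24 hr. All cells were grown in EMEM at 37 °C, and no group was left without a transfection. The cargo, the reagent, the hours and any batch that went with them changed together and cannot be told apart here. The cells were 1 line, and nothing in the labels says whether the 3 libraries of a group came from separate cultures, so the p-values measure the spread between these libraries.

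The design gives the contrast in 2 arms that share no library. The control arm is eGFP minus si-CTL, in which neither cargo is aimed at β-catenin. The modified arm is S45Y minus si-Ctnnb1, in which β-catenin activity is raised on the plasmid side and lowered on the siRNA side. A gene that differed with the transfection alone would differ in both arms, and the difference between the arms is by construction the effect of S45Y over eGFP minus the effect of si-Ctnnb1 over si-CTL.

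As background, cells carry sensors for nucleic acids that arrive by a route other than the nucleus. Sensors of DNA in the cytosol and of double-stranded RNA lead to type I interferon, which acts through the transcription factors Stat2 and Irf9, among others, on genes whose promoters hold an interferon-stimulated response element. Short siRNAs use the RNA interference machinery. Lipid carriers and strong expression of a foreign protein can also load the endoplasmic reticulum and the chaperones, whose stress response runs through Atf4 and Ddit3.

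Library totals were 91468 to 122304 counts in the plasmid libraries and 221767 to 326686 in the siRNA libraries, so depth went with the contrast. At these depths 2996 of 24421 genes passed the filter on low counts, and they held 89.7% of all counts. Values below are CPM, counts relative to the TMM-scaled library total, and the fold changes are log2 values from the quasi-likelihood test of edgeR with its standard error (SE). A gene was called where its p, adjusted by the method of Benjamini and Hochberg, was below 0.05. The cells had counts for the cholangiocyte keratins Krt8, Krt18 and Krt19, for Spp1 and for Sox9, while Epcam and Cftr had none in any library. Alb and Ttr of hepatocytes, Col1a2 and Col3a1 of fibroblasts, Ptprc and Adgre1 of leukocytes and Pecam1 of endothelium were at 0 in all 12 libraries. Ctnnb1, the targeted gene, was at 51.2, 89.2 and 92.6 CPM in eGFP, at 125, 41.8 and 155 CPM in S45Y, at 58.0, 114 and 91.4 CPM in si-CTL and at 0, 34.8 and 9.52 CPM in si-Ctnnb1. Only the highest si-Ctnnb1 library was above 10 CPM, and the S45Y and eGFP libraries overlapped.

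The strand setting of the authors' counting is not given in the sources used here, and this bears on every gene that overlaps another on the opposite strand. The cytosolic ribosomal protein gene Rpl15 had 37 counts over all libraries and Nkiras1, which overlaps it on the other strand, had 3476. Of 14 ribosomal protein genes with such a partner in the table, 8 had fewer counts than the partner. The reads of a gene and of its opposite-strand partner cannot be told apart here, and the partner is therefore named below beside most genes that have one. Eif2ak2 (with Gm26637), Usp18 (Gm44148), Irf7 (Phrf1), Ifi35 (Gm11626), Psme1 (Emc9), Krt8 (Gm36026), Malat1 (Gm37376), Nhp2 (Rmnd5b), Pfkp (Pitrm1), Slc13a2 (Slc13a2os), Stab1 (Nt5dc2), Slc25a26 (Lrig1) and Dnajc19 (Fxr1) have such a partner too, as do Srpk2 and Tsix. The share of counts, Rn45s aside, that fell on overlapped genes also moved with the contrast. It was 64.9% to 67.3% in the plasmid libraries and 70.7% to 73.2% in the siRNA libraries (mean 65.9% ± 0.958 against 71.9% ± 1.08, SD, n = 6 each, two-sided exact permutation p = 0.00216, the smallest this design can give). The median log2 fold change of plasmid over siRNA was -0.11 over the 1646 overlapped genes tested and 0.15 over the other 1350. The part of strand in the results below was not tested beyond these values and those given for summed pairs.

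Many genes moved the same way in both arms. In the control arm 192 genes were higher in eGFP (6.41% of the genes tested) and 225 lower (7.51%). The split was 156 higher and 281 lower when libraries were scaled by their totals alone. In the modified arm 237 genes were higher in S45Y (7.91%) and 335 lower (11.2%). Of these, 96 genes were called higher in both arms (3.20% of the genes tested) and 148 lower in both (4.94%). No gene was called in opposite directions in the 2 arms by edgeR or by DESeq2, other filters, scalings and left-out libraries gave 0 to 3, and 6 genes differed in opposite directions at an unadjusted p below 0.05 in each arm. The 244 shared genes were 58.5% of the genes called in the control arm and 42.7% of those called in the modified arm. Among the genes called in the control arm, 391 of 417 (93.8%) had the same sign in the modified arm, against 70.5% of all genes tested. Across the 2996 genes, the log2 fold changes of the arms had Pearson's r = 0.591 and Spearman's rho = 0.557. Genes are not independent replicates, the points share library depth, and without the filter on low counts r was 0.154. With the arms pooled, so that 6 plasmid libraries stood against 6 siRNA libraries, 377 genes were higher (12.6%) and 487 lower (16.3%), of which 163 and 154 changed by 1 or more on the log2 scale. Without the filter on low counts, the split was 191 higher and 744 lower in the pooled comparison and 37 and 235 in both arms.

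**Figure D1:**
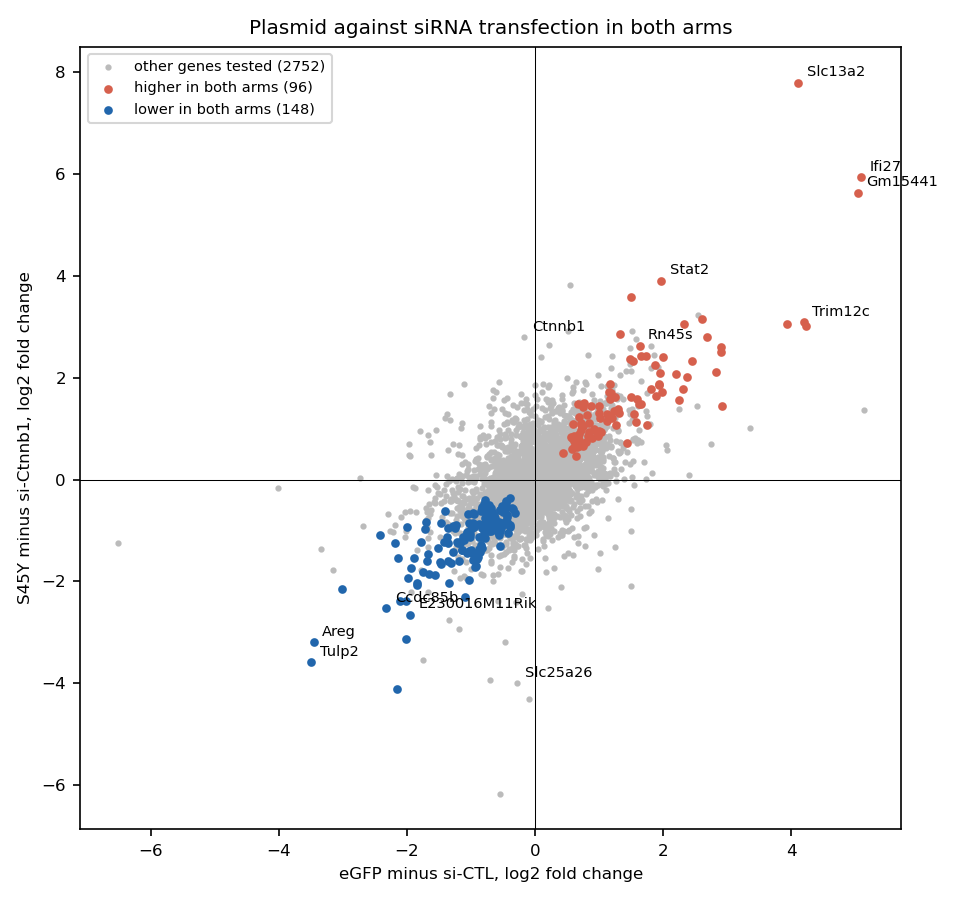
Each point is 1 of the 2996 genes tested, with the log2 fold change of eGFP minus si-CTL on the x axis and of S45Y minus si-Ctnnb1 on the y axis. The 96 genes called higher in both arms are red, the 148 called lower in both are blue, and they lie in opposite corners, with Ctnnb1 and Slc25a26 off the diagonal.

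The gene with the smallest p in the pooled comparison was Gm15441, a transcript antisense to Txnip. Txnip itself codes for an inhibitor of thioredoxin that responds to glucose. Gm15441 (mm10, chromosome 3, 96555765 to 96566801) shares 606 exon bases with Txnip. It was at 4710, 4377 and 4521 CPM in eGFP and at 2688, 4415 and 4064 CPM in S45Y. In the siRNA libraries it was at 103, 125 and 183 CPM in si-CTL and at 97.4, 69.6 and 57.1 CPM in si-Ctnnb1. Every plasmid library was far above every siRNA library. The log2 fold change was 5.05 ± 0.15 in the control arm and 5.64 ± 0.19 in the modified arm (adjusted p = 2.7e-33 and 2.43e-39, edgeR). Txnip had 6 counts in eGFP, 3 in S45Y and 0 in all siRNA libraries. Scaled to depth, the 6 counts in eGFP were 4.97-fold the 3 counts that a 0 over the si-CTL libraries allows. Counting error in the 6 themselves is not included. Which of the pair the reads came from is not known.

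Several genes known from the interferon response were called higher in both arms, and Trim12c, Parp9, Dtx3l, Helz2 and Ifi27 are not on the fixed list of interferon-stimulated genes described further on. Trim12c, Parp9, Helz2, Ifi27 and the Mir6381 locus below were low in the siRNA libraries and passed the filter on low counts through the plasmid libraries. Their calls describe these genes and are no test of an interferon response. Trim12c, a member of a tripartite motif family with roles in antiviral sensing, was at 230, 259 and 278 CPM in eGFP and at 125, 136 and 112 CPM in S45Y. It was at 4.46, 23.9 and 9.79 CPM in si-CTL and at 13.4, 12.7 and 15.9 CPM in si-Ctnnb1. The groups of plasmid and siRNA libraries did not overlap, and the log2 fold changes were 4.19 ± 0.45 and 3.09 ± 0.62 (adjusted p = 3.26e-10 and 9.95e-05, edgeR). Parp9 and Dtx3l code for partner proteins, an ADP-ribosyltransferase and a ubiquitin ligase, that act together in interferon signalling, and the genes lie head to head on chromosome 16 and overlap by 458 exon bases. Parp9 was at 250 to 556 CPM in the plasmid libraries and at 22.3 to 50.6 CPM in the siRNA libraries, and Dtx3l at 79.4 to 316 CPM and 26.1 to 73.9 CPM. Both were called higher in both arms, Parp9 with log2 fold changes of 3.93 ± 0.30 and 3.05 ± 0.35 and Dtx3l with 2.92 ± 0.42 and 1.44 ± 0.45. With the counts of the pair summed the pooled log2 fold change was 2.95.

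Stat2, the partner of Irf9 in the factor that reads interferon, was at 76.8, 56.7 and 111 CPM in eGFP and at 90.7, 93.9 and 85.9 CPM in S45Y. It was at 17.8, 29.9 and 13.1 CPM in si-CTL and at 16.8, 0 and 0 CPM in si-Ctnnb1. The log2 fold changes were 1.98 ± 0.64 and 3.91 ± 0.86 (adjusted p = 0.027 and 0.000362, edgeR), and the lowest plasmid library was above the highest siRNA library. Eif2ak2 codes for PKR, a kinase that binds double-stranded RNA and halts translation. It was at 83.5 to 122 CPM in the plasmid libraries and at 12.7 to 40.1 CPM in the siRNA libraries, with log2 fold changes of 1.95 ± 0.53 and 2.095 ± 0.64. Usp18, which takes the ubiquitin-like ISG15 off proteins and damps the interferon receptor, was at 128 to 284 CPM against 10.1 to 84.7 CPM, with log2 fold changes of 1.65 ± 0.39 and 2.44 ± 0.42. All 3 were called higher in both arms. Helz2, a helicase that serves as a nuclear receptor coactivator, rose with them, at 40.5 to 148 CPM against 0 to 19.6 CPM.

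Ifi27, which codes for a small mitochondrial protein induced by interferon, was called higher in both arms on few counts (adjusted p = 3.27e-05 and 0.00559, edgeR). It had 34 counts in eGFP and 2 in si-CTL, a ratio of scaled counts of 42.2 with a 95% counting interval of 10.8 to 363. It had 11 counts in S45Y and 0 in si-Ctnnb1, a ratio of scaled counts of 11.3 against the floor of 3 counts over the group. The interval covers counting error only. The ratio to the floor allows for that error in the 0 but not in the 11 counts, so it is not a lower bound.

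Mir6381, a microRNA gene, was counted at 512, 648 and 472 CPM in eGFP and at 170, 376 and 275 CPM in S45Y, against 23.9 to 38.0 CPM in the siRNA libraries. Its hairpin lies on the minus strand of chromosome 3 from 142623860 to 142623946, over an exon of Gbp2 on the other strand, and the library type does not show a mature microRNA. Gbp2, an interferon-induced guanylate-binding GTPase, had 11 counts in the plasmid libraries and 0 in the siRNA libraries. The log2 fold changes of Mir6381 were 4.23 ± 0.30 and 3.02 ± 0.38 (adjusted p = 2.35e-16 and 1.88e-09, edgeR). Its mature sequence from RefSeq (GRCm38.p6, chr3:142623925-142623945, minus strand) is shown because this locus gave one of the highest rises, and that of Mir6236 (chr9:110281353-110281371, plus strand) because that locus differed most clearly between the arms, with the seed (bases 2 to 8) in capitals.
mmu-miR-6381: cAGGAUGCuggugacaugagu
mmu-miR-6236: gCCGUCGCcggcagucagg
The seeds differ, and neither sequence says which transcript the counted reads came from.

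The whole list of interferon-stimulated genes was read without the filter as well, since only 4 of its 44 members passed it. Of those 4, 3 were called higher in both arms and in the pooled comparison, and Ifi35 did not pass. Stat2 and Eif2ak2 were low in the siRNA libraries and passed the filter through the plasmid libraries, so this count is not set against the 12.6% of all genes tested. The list summed to 1024, 1248 and 1093 CPM in eGFP and to 1202, 741 and 859 CPM in S45Y. It summed to 241, 242 and 199 CPM in si-CTL and to 151, 168 and 213 CPM in si-Ctnnb1. The lowest plasmid library was thus above the highest siRNA library. Without the 4 members that passed, the sum was 365 to 705 CPM in the plasmid libraries and 35.7 to 92.1 CPM in the siRNA libraries. Of the 40 members with a count, all had a higher mean CPM in the plasmid libraries and 30 had one in each arm, against 56.7% and 28.04% of the 14374 genes with a count. Among them, 19 were counted only in the plasmid libraries, although these were the shallower, and 0 only in the siRNA libraries, against 7.04% and 12.6% of the genes with a count. Oasl2 had 28 counts in the plasmid libraries, Gbp3 had 23 and Rsad2 had 12, and all had 0 in the siRNA libraries. Irf7, the factor that amplifies the response, had 25 and 39 counts. Isg15 had 4 counts, all in eGFP, and Mx1, Ifi47, Psmb8 and Psmb9 had none in any library.

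**Figure D2:**
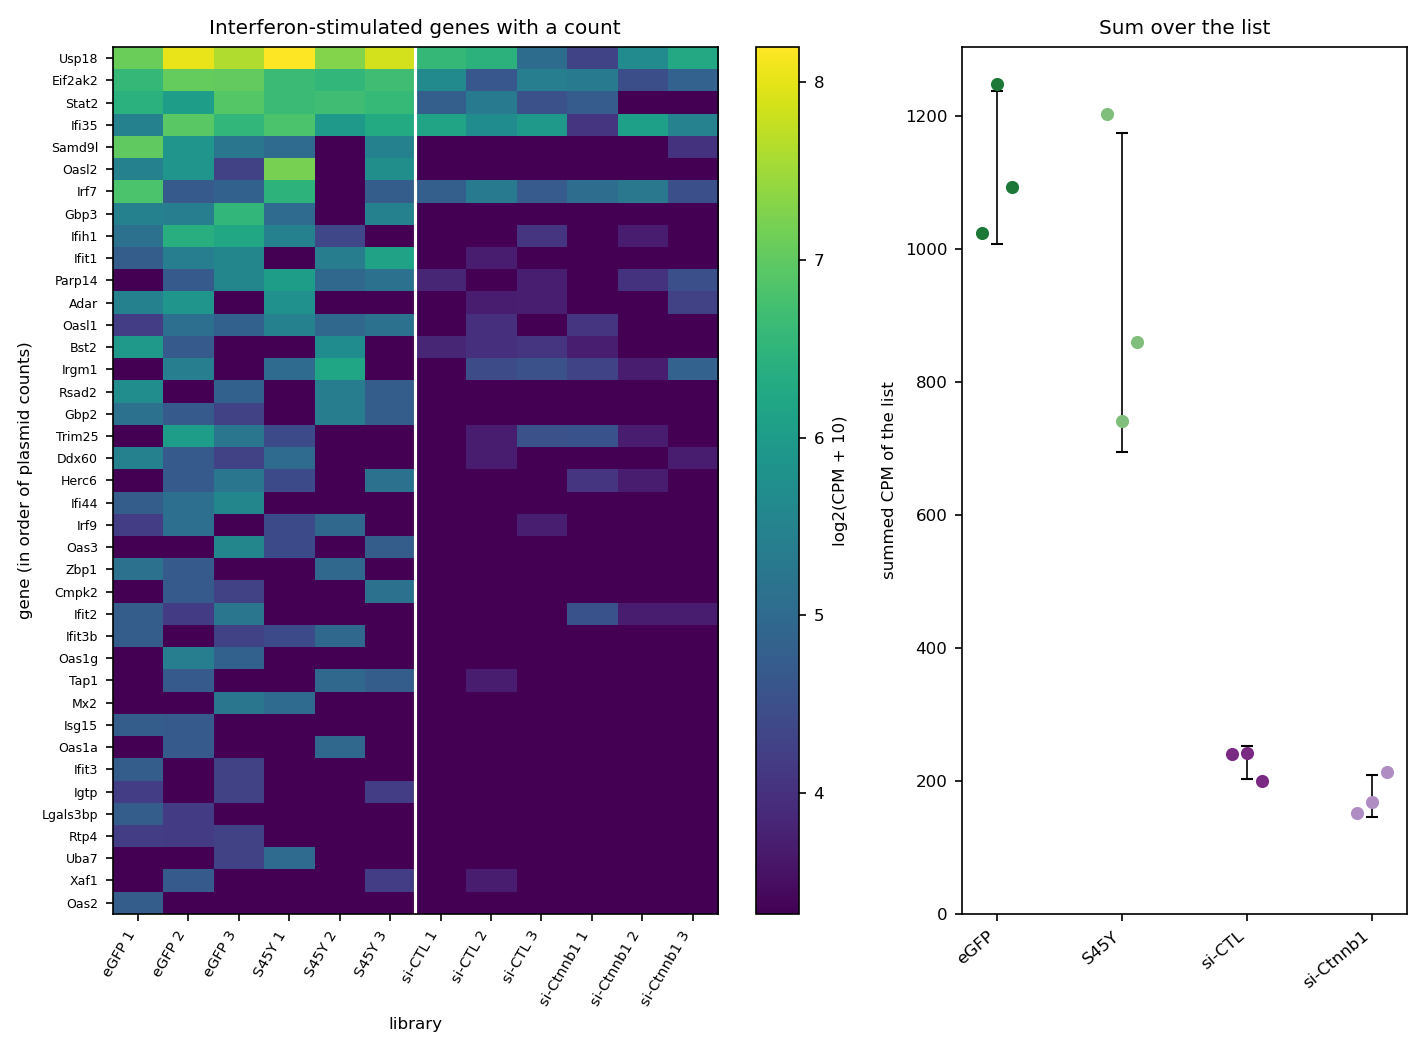
The heat map gives log2(CPM + 10) of 39 of the 40 interferon-stimulated genes with a count (rows) in the 12 libraries (columns, plasmid libraries left of the white line), and the right panel gives the summed CPM of the list in each library, with the bars at the mean ± SD of 3 libraries. The plasmid libraries lie between 741 and 1248 CPM and the siRNA libraries between 151 and 242 CPM.

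The promoters of 3 of these genes and of 1 further gene called higher in both arms are shown with the core of the interferon-stimulated response element, which is GAAA, any 2 bases and GAAA again, in capitals where it occurs on either strand (TTTC, any 2 bases and TTTC when read on the other). Each run is RefSeq sequence of GRCm38.p6 in the direction of the gene, up to 60 bases on each side of the match and none past the start. They are Stat2 (chr10:128270248-128270345, plus strand), Trim12c (chr7:104353350-104353438, minus strand), Gbp2 (chr3:142620544-142620662, plus strand) and D17H6S56E-5 (chr17:35000764-35000893, minus strand).
Stat2: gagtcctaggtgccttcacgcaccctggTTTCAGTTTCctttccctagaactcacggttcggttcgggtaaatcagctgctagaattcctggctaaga
Trim12c: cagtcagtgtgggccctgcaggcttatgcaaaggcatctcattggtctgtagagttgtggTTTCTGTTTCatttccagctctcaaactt
Gbp2: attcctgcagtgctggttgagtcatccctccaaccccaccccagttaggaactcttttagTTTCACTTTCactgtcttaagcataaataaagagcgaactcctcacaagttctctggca
D17H6S56E-5: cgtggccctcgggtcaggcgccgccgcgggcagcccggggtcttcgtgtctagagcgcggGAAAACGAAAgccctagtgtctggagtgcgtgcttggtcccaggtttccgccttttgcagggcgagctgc
The match begins 222 bases before the start of Stat2, 29 before that of Trim12c, 59 before that of Gbp2 and 87 before that of D17H6S56E-5. In windows of 250 bases before to 50 after the start, this core was found in 943 of 27025 promoters (3.49%) and in 66 of the 2307 promoters matched to a gene tested (2.86%). The genes higher in both arms were chosen by their change, so no share is read from them. Gbp2 had too few counts to be tested. Among the genes called higher in both arms, the core was also found in the windows of Eif2ak2 and Psme1, which codes for an activator of the proteasome that interferon induces. A match of letters describes the window and shows no binding.

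The sensors that lie upstream of interferon were mostly too low to test. Of 28 nucleic acid sensor genes, 2 passed the filter and 1, Eif2ak2, was called, which did so through the plasmid libraries. The summed level of the list was 404 to 697 CPM in the plasmid libraries and 237 to 375 CPM in the siRNA libraries. None of the 5 tested genes of the RNA interference machinery was called by edgeR or DESeq2, and 1 was higher at an unadjusted p below 0.05 (median log2 fold change 0.19, all genes tested 0.02). Of the 4 tested NF-κB target genes 1 was called, Tnip1, which codes for an inhibitor of the pathway, with a pooled log2 fold change of 1.44 (adjusted p = 0.00461, edgeR) and overlapping libraries, a call lost without S45Y replicate 3 (adjusted p = 0.111). None of the 5 tested immediate early genes was called by edgeR or DESeq2, 1 was higher and 1 lower at an unadjusted p below 0.05, and the median was 0.03. Among all genes tested, 12.6% were called higher and 16.3% lower.

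The chaperones and the stress response of the endoplasmic reticulum did not move as a block. Of 13 tested members of the integrated stress and unfolded protein response list, 3 were higher and 4 lower in the plasmid libraries, against 12.6% and 16.3% of all genes tested. Calr, a calcium-binding chaperone of the endoplasmic reticulum, was at 640, 762 and 685 CPM in eGFP and at 715, 595 and 541 CPM in S45Y, and at 237 to 396 CPM in the siRNA libraries. Its log2 fold change was 1.26 ± 0.19 in the control arm and 1.07 ± 0.22 in the modified arm (adjusted p = 1.95e-06 and 0.000145, edgeR). Hsp90b1, the Hsp90 of the same compartment, was at 762 to 1282 CPM against 500 to 587 CPM, with log2 fold changes of 0.72 ± 0.17 and 1.07 ± 0.17. It overlaps 1810014B01Rik on the other strand.

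The transcription factors of that response went the other way. Ddit3, the factor CHOP that is made late in the stress response, was at 239, 178 and 278 CPM in eGFP and at 193, 219 and 198 CPM in S45Y. It was at 589, 550 and 414 CPM in si-CTL and at 463, 595 and 527 CPM in si-Ctnnb1. All plasmid libraries were below all siRNA libraries, with log2 fold changes of -1.13 ± 0.23 and -1.38 ± 0.25 (adjusted p = 0.000237 and 1.17e-05, edgeR). Ddit3 overlaps Mars on the other strand by 68 bases, and the summed pair was at -1.33. Atf4, which drives Ddit3, was at 74.1 to 230 CPM against 171 to 379 CPM. It was called lower in the pooled comparison (log2 fold change -0.91 ± 0.21, adjusted p = 0.000452, edgeR) and in the control arm, but not in the modified arm (-0.71 ± 0.31, adjusted p = 0.1), and the libraries overlapped.

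Of 18 tested heat shock chaperone genes, 4 were higher, all of them in both arms, and 0 lower by edgeR, by DESeq2 or at an unadjusted p below 0.05, against 12.6% higher and 16.3% lower among all genes tested. Hspa8, the constitutive Hsp70, was at 216 to 299 CPM in the plasmid libraries and at 50.6 to 149 CPM in the siRNA libraries, with log2 fold changes of 1.76 ± 0.31 and 1.08 ± 0.33. Hsp90ab1, the constitutive Hsp90, was at 2552 to 3056 CPM against 1882 to 2219 CPM, with log2 fold changes of 0.44 ± 0.11 and 0.53 ± 0.13. St13, a cochaperone that links them, and Tcp1, a subunit of the chaperonin that folds actin and tubulin, were the other members called. Tcp1 overlaps Acat3, which fell, and the summed pair was at -0.39, so its direction turned with the summing.

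**Figure D3:**
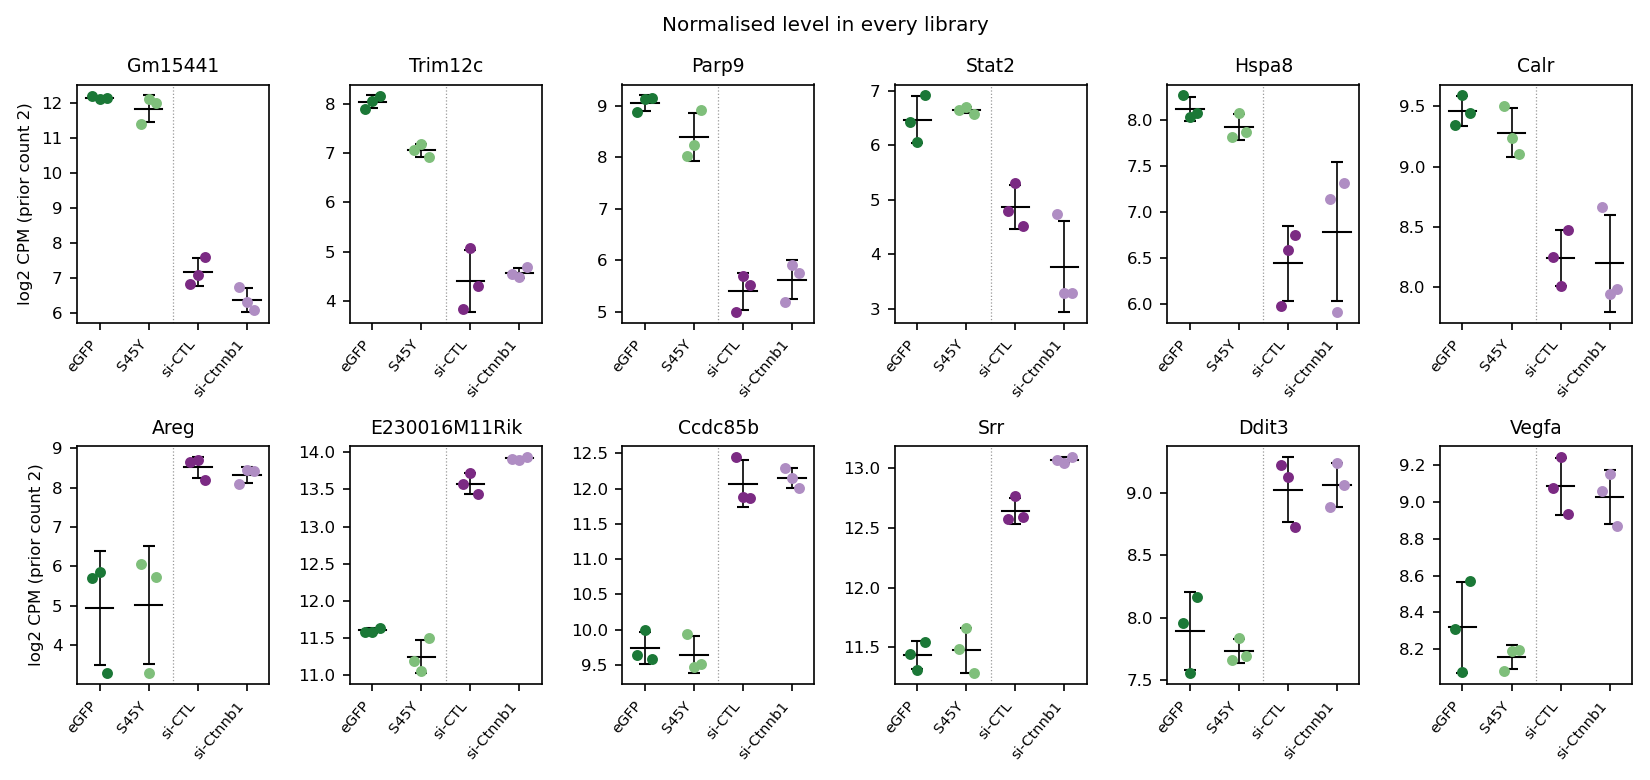
Log2 CPM (prior count 2) of 12 named genes in every library, with the horizontal line at the mean and the bar at ± SD of 3 libraries in each group, and plasmid groups left of the dotted line. In each of the upper 6 panels all plasmid libraries lie above all siRNA libraries, and in each of the lower 6 all lie below.

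Areg, which codes for amphiregulin, a ligand of the EGF receptor, fell far in both arms. It was at 42.7, 48.6 and 0 CPM in eGFP and at 56.7, 0 and 43.0 CPM in S45Y. It was at 388, 403 and 284 CPM in si-CTL and at 262, 338 and 330 CPM in si-Ctnnb1. The log2 fold changes were -3.46 ± 0.40 and -3.20 ± 0.43 (adjusted p = 2.04e-09 and 1.04e-08, edgeR). No exon of another gene overlaps it on the opposite strand. Areg, and Tulp2 described below, were low in the plasmid libraries and passed the filter through the siRNA libraries. Its promoter (GRCm38.p6, chr5:91139478-91139598, plus strand) is shown with a cyclic AMP response element, TGACGTCA, in capitals, a site through which this gene is known to be controlled.
Areg: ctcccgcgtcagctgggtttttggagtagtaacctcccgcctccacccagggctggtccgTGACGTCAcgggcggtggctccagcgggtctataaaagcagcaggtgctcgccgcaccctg
The element begins 61 bases before the start. It was found in 507 of 27025 promoters (1.88%) and in 71 of 2307 of the genes tested (3.08%).

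Most genes called lower in both arms overlap another gene. Of the 146 genes lower in both arms that could be matched to the annotation, 123 (84.2%) had an exon overlapped on the opposite strand, against 42 of 94 (44.7%) of those higher in both arms and 55.6% of all genes tested. The lower genes were also better counted, at a median of 630 CPM against 102 CPM over all genes tested. E230016M11Rik, a noncoding transcript on chromosome 6 from 67036599 to 67080654 that overlaps the stress gene Gadd45a by 337 bases, was at 3063, 3064 and 3177 CPM in eGFP and at 2325, 2129 and 2878 CPM in S45Y. It was at 12146, 13458 and 11103 CPM in si-CTL and at 15420, 15234 and 15684 CPM in si-Ctnnb1. The log2 fold changes were -1.95 ± 0.10 and -2.65 ± 0.12 (adjusted p = 9.39e-23 and 1.2e-30, edgeR). Gadd45a fell too, at 145 to 292 CPM against 399 to 553 CPM, with log2 fold changes of -1.23 ± 0.24 and -0.89 ± 0.25.

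Ccdc85b, which codes for a coiled-coil protein, overlaps Fosl1, a member of the AP-1 family, by 1163 bases. Ccdc85b was at 699 to 1013 CPM in the plasmid libraries and at 3737 to 5591 CPM in the siRNA libraries, and fell in both arms (log2 fold changes -2.32 ± 0.14 and -2.52 ± 0.15). Fosl1 did not pass in either arm, with a pooled value of 0.03 ± 0.25. Tulp2, a tubby-like gene, was at 0 to 42.7 CPM against 121 to 225 CPM, with log2 fold changes of -3.49 ± 0.58 and -3.59 ± 0.51. It overlaps Dhdh and, by 12 bases, Ppp1r15a, which codes for GADD34 and reverses the halt of translation in stress. Ppp1r15a was at 0 to 41.8 CPM against 44.3 to 71.8 CPM and fell in the pooled comparison (log2 fold change -2.36 ± 0.58, adjusted p = 0.000975, edgeR).

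Among the genes with the most counts that fell, Srr, the serine racemase gene, was at 2483 to 3225 CPM in the plasmid libraries and at 6077 to 8739 CPM in the siRNA libraries. Its log2 fold changes were -1.19 ± 0.10 and -1.59 ± 0.12, while Tsr1, a ribosome assembly factor on the opposite strand, rose by 0.65 ± 0.18 and 0.75 ± 0.21. Tti2, part of a complex that stabilizes large kinases, was at 2148 to 3006 CPM against 5144 to 7019 CPM, and Mak16 on its other strand fell with it in the pooled comparison (-0.60 ± 0.18). Crbn, the substrate receptor of an E3 ubiquitin ligase, was at 2707 to 3330 CPM against 5147 to 6371 CPM, with log2 fold changes of -0.79 ± 0.10 and -0.95 ± 0.12, and overlaps Trnt1. Slc4a5, a sodium bicarbonate cotransporter without such a partner, was at 0 to 79.4 CPM against 80.3 to 142 CPM, with log2 fold changes of -3.01 ± 0.62 and -2.14 ± 0.52.

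Partners on opposite strands were compared in all 389 pairs in which both genes were tested. In 59 pairs both genes were called in the pooled comparison. Of these, 30 were both lower, 4 were both higher, and 25 went in opposite directions. In 19 of the 25 the gene with more counts fell and the gene with fewer rose, as with Srr and Tsr1. With the counts of each overlapping set summed, 742 of 2659 loci were called in the pooled comparison and 223 in both arms.

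Ribosomal RNA precursor was the most counted transcript that rose. Rn45s made up 10.03% to 15.4% of all counts in the plasmid libraries and 1.61% to 5.49% in the siRNA libraries (mean 12.8% ± 2.32 against 3.23% ± 1.38, SD, n = 6 each, two-sided exact permutation p = 0.00216, the smallest this design can give). It was at 99416 to 161729 CPM in the plasmid libraries and at 15911 to 54331 CPM in the siRNA libraries. The log2 fold change was 1.64 ± 0.11 in the control arm and 2.63 ± 0.12 in the modified arm. Mir6236 and Lars2, a mitochondrial leucyl-tRNA synthetase, were called higher in both arms as well. Both loci are known to collect reads of ribosomal RNA in mouse libraries, and their counts should be read with those of Rn45s. How far ribosomal RNA was removed from each library was not tested. Malat1, a nuclear noncoding RNA, was at 2030 to 2612 CPM against 901 to 1180 CPM, with log2 fold changes of 1.20 ± 0.12 and 1.20 ± 0.14.

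Of 22 tested genes of ribosome biogenesis, 5 were lower, 17 were not called and 0 were higher by edgeR, by DESeq2 or at an unadjusted p below 0.05. The share of lower genes was near the 16.3% of all genes tested, and the median log2 fold change was -0.28 against 0.02 over all genes tested. Ddx21, a nucleolar RNA helicase, was at 85.9 to 238 CPM in the plasmid libraries and at 307 to 430 CPM in the siRNA libraries, with log2 fold changes of -1.17 ± 0.27 and -1.22 ± 0.28 (adjusted p = 0.00175 and 0.000786, edgeR). Nolc1, a nucleolar phosphoprotein, fell in both arms, by 0.84 ± 0.23 and 0.62 ± 0.23 on the log2 scale. Nop58 and Nhp2, core proteins of the box C/D and box H/ACA particles that modify ribosomal RNA, fell in the pooled comparison by 1.10 ± 0.33 and 1.02 ± 0.30. Of 49 tested cytosolic ribosomal protein genes, 4 were higher and 2 lower, against 12.6% and 16.3% of all genes tested, and the median was 0.20. Of the 4, Rpl5 turned and Rpl12 was lost when summed with their partners, and Rpl28 was lost under 9 other settings.

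Of 29 tested members of the cytoskeleton list, 10 were higher and 2 lower, against 12.6% and 16.3% of all genes tested, with a median log2 fold change of 0.28. Tmsb10, an actin-sequestering peptide, was at 2688 to 3601 CPM in the plasmid libraries and at 1540 to 2055 CPM in the siRNA libraries, with log2 fold changes of 0.70 ± 0.11 and 0.89 ± 0.13. Myh9, the heavy chain of nonmuscle myosin IIA, was at 1110 to 1528 CPM against 616 to 920 CPM, with log2 fold changes of 0.72 ± 0.14 and 1.11 ± 0.15. Vim (vimentin) and Tubb5 (a β-tubulin) also rose in both arms. Of the epithelial keratins, Krt8 and Krt18 rose and Krt19 did not pass (0.51 ± 0.22 pooled, adjusted p = 0.0812, edgeR). Krt8 was at 259 to 482 CPM against 136 to 218 CPM, with log2 fold changes of 1.12 ± 0.25 and 1.14 ± 0.26, and Krt18 was at 612 to 828 CPM against 282 to 514 CPM. With Spp1 (osteopontin, 0.83 ± 0.19 pooled), Krt8 and Krt18 made 3 of the 8 tested cholangiocyte markers, and none was lower by edgeR or DESeq2, with 1 lower at an unadjusted p below 0.05. Spp1 was called in the modified arm but not in the control arm (0.34 ± 0.25), and the difference between the arms did not pass (adjusted p = 0.266, edgeR).

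Basp1, a membrane-associated protein of the cell cortex, and Rrbp1, which binds ribosomes to the endoplasmic reticulum, were the most counted protein-coding genes that rose without overlap of the libraries. Basp1 was at 7182 to 9735 CPM against 5297 to 6716 CPM, and its log2 fold changes of 0.64 ± 0.09 and 0.45 ± 0.12 were small beside their number of counts. Rrbp1 was at 3993 to 5076 CPM against 2019 to 2484 CPM, with log2 fold changes of 0.99 ± 0.11 and 0.95 ± 0.12. Gpr108, a Golgi protein, was at 167 to 251 CPM against 17.9 to 44.6 CPM (2.90 ± 0.45 and 2.60 ± 0.40). Plat, the tissue plasminogen activator, was at 51.2 to 97.3 CPM against 3.17 to 22.3 CPM (2.91 ± 0.78 and 2.50 ± 0.75). Slc13a2, a sodium dicarboxylate transporter, had 24 counts in eGFP and 3 in si-CTL, a ratio of 19.9 with a counting interval of 6.03 to 103. It had 41 counts in S45Y and 0 in si-Ctnnb1, a ratio of 42.3 to the floor that leaves out counting error in the 41. Gpr108, Plat and Slc13a2 were low in the siRNA libraries and passed the filter through the plasmid libraries.

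Of the 23 tested cell cycle genes, 5 were higher and 1 lower, against 12.6% and 16.3% of all genes tested, and of the 5 Ccne2 turned when summed with its partner and was lost without eGFP replicate 2. Mki67, the proliferation marker, was at 584 to 1078 CPM in the plasmid libraries and at 259 to 612 CPM in the siRNA libraries, with log2 fold changes of 0.68 ± 0.19 and 1.48 ± 0.19. Cenpf, a kinetochore protein, was at 136 to 203 CPM against 50.8 to 91.4 CPM. Both were called higher in both arms. Ccna2, cyclin A2, went the other way in the pooled comparison (-0.42) but was at -0.09 when summed with Exosc9 on the other strand, where it no longer passed. Of the 15 tested genes of glycolysis and hypoxia, 3 were higher and 3 lower, against the same shares. Vegfa, the angiogenic growth factor, was at 259 to 371 CPM against 457 to 597 CPM, with log2 fold changes of -0.76 ± 0.21 and -0.89 ± 0.23. Pfkp, the platelet form of phosphofructokinase, fell by 0.77 ± 0.15 and 0.76 ± 0.16.

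The other lists are given by their counts, to be read against 12.6% higher and 16.3% lower among all genes tested. Of 12 tested genes of cholesterol and fatty acid synthesis 3 were higher and 1 lower, of 12 lysosome and autophagy genes 4 and 1 (of the 4, Becn1 turned and Ctsb and Ctsa were lost when summed with their partners, and Atg7 was lost under 9 of 22 other settings), of 33 chromatin regulators 5 and 0 (2 lower at an unadjusted p below 0.05 and 0 by DESeq2), of 44 splicing and RNA-binding factors 4 and 2 (of the 4, Pcbp2 turned when summed with Map3k12 and Ewsr1 was lost under 4 other settings), of 23 translation factors 4 and 1, and of 17 matrix and adhesion genes 5 and 1 (of the 5, Ctnna1 turned when summed with its partner and Lamb2 was lost without S45Y replicate 3). Of 11 tested nuclear-encoded respiratory chain genes 1 was higher and 1 lower, and of 8 proteasome and ubiquitin genes 1 and 2. Further calls of list members were lost, Ehmt2 under 8 other settings, Psmd7 under 7 and Tpt1, Rmrp and Npc1 under 3 each. Tpi1 was lost under 2, among them when summed with its partner. Both tested p53 target genes were lower, Gadd45a and Trp53inp1. Of the 8 tested nuclear noncoding RNAs and snoRNA host genes 3 were higher and 0 lower, also by DESeq2 and at an unadjusted p below 0.05 for the latter. The 3 tested Wnt target genes gave 1 call, which was Ctnnb1 itself, and it was lost under 5 other settings, among them without S45Y replicate 3 (adjusted p = 0.0821, edgeR) and when summed with Ulk4 (log2 fold change 0.63, adjusted p = 0.0786). Of the 4 lists of other cell types, hepatocyte, leukocyte, fibroblast and endothelial markers had 1, 1, 2 and 1 tested members, and the calls were Vim higher and Stab1 lower.

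**Figure D4:**
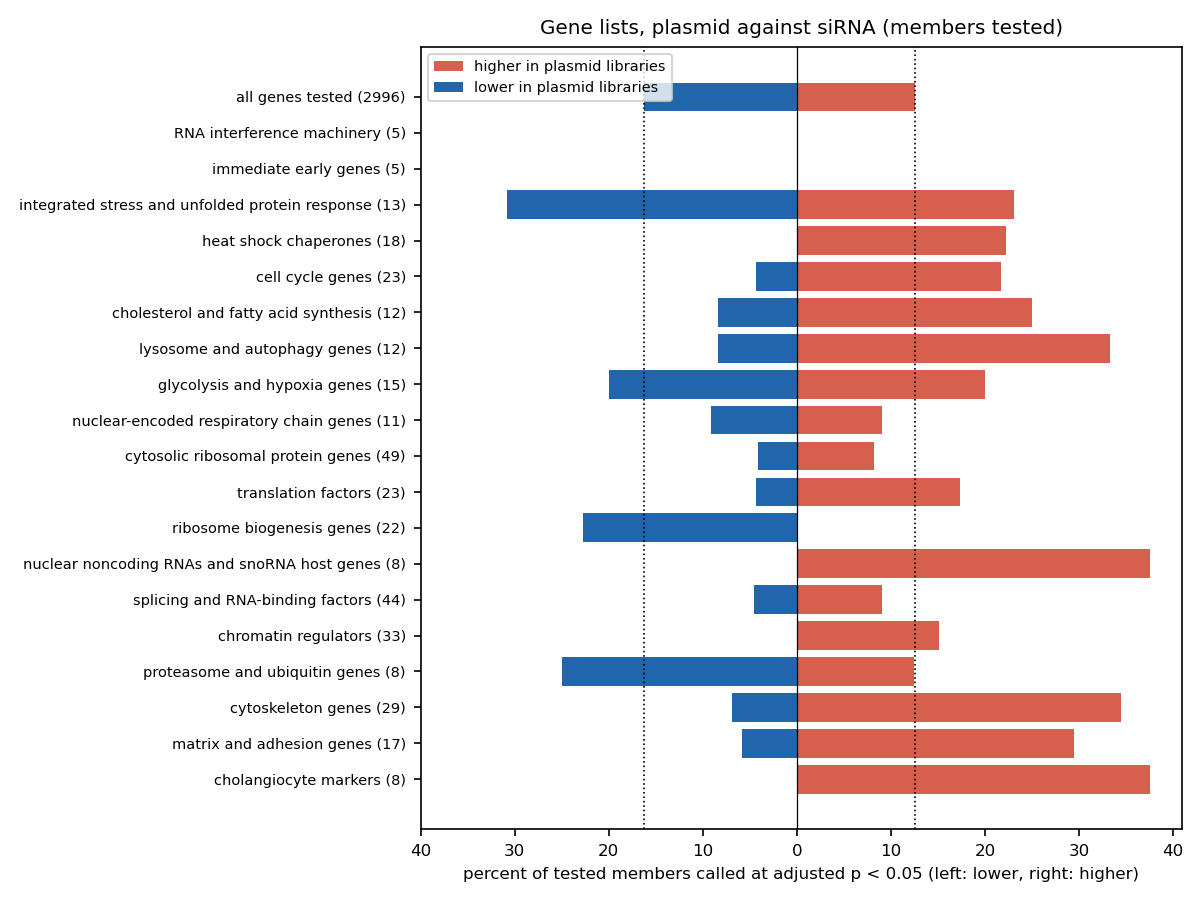
For each gene list with at least 5 tested members (number in brackets), the bars give the percent of tested members called higher (red, to the right) or lower (blue, to the left) in the 6 plasmid against the 6 siRNA libraries. The dotted lines mark the 12.6% and 16.3% of all 2996 genes, and ribosome biogenesis genes have calls on the left alone, while heat shock chaperones, chromatin regulators, nuclear noncoding RNAs and cholangiocyte markers have them on the right alone.

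The difference between the arms was called for 15 genes (0.501% of the genes tested, edgeR), and 296 of the 2996 had an unadjusted p below 0.05 for it, so a gene without a call is not shown to be alike in the arms. Of these, 13 are described here. Map3k12, a kinase of neuronal stress signalling that overlaps Pcbp2 by 1573 bases, was at 4084 to 6114 CPM in the eGFP, S45Y and si-Ctnnb1 libraries and at 9841, 7161 and 6730 CPM in si-CTL. Its difference was 1.13 ± 0.16 (adjusted p = 9.04e-07, edgeR). Nsun5, a methyltransferase of ribosomal RNA that overlaps Pom121, went down in the control arm (-1.64 ± 0.26) and was at 0.73 ± 0.30 in the modified arm, and its difference did not pass without S45Y replicate 1 (adjusted p = 0.0714, edgeR).

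Rn45s and Mir6236 rose in both arms and by more in the modified arm, by 1.02 ± 0.17 and 1.54 ± 0.20 on the log2 scale (adjusted p = 2.11e-05 and 7.67e-08, edgeR). With DESeq2 the difference of Rn45s did not pass (adjusted p = 0.206). In both, the eGFP and S45Y libraries lay close together and the si-Ctnnb1 libraries lay below the si-CTL libraries. Ctnnb1 was the last of the 15 (difference 3.00 ± 0.78, adjusted p = 0.0496, edgeR). It had 14 counts in si-Ctnnb1, 79 in si-CTL, 33 in S45Y and 27 in eGFP, and overlaps Ulk4 on the other strand by 759 bases. Its call was lost under 14 of 20 other settings, 10 of them with 1 library left out (any of the 12 except S45Y replicate 2 and si-Ctnnb1 replicate 2).

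**Figure D5:**
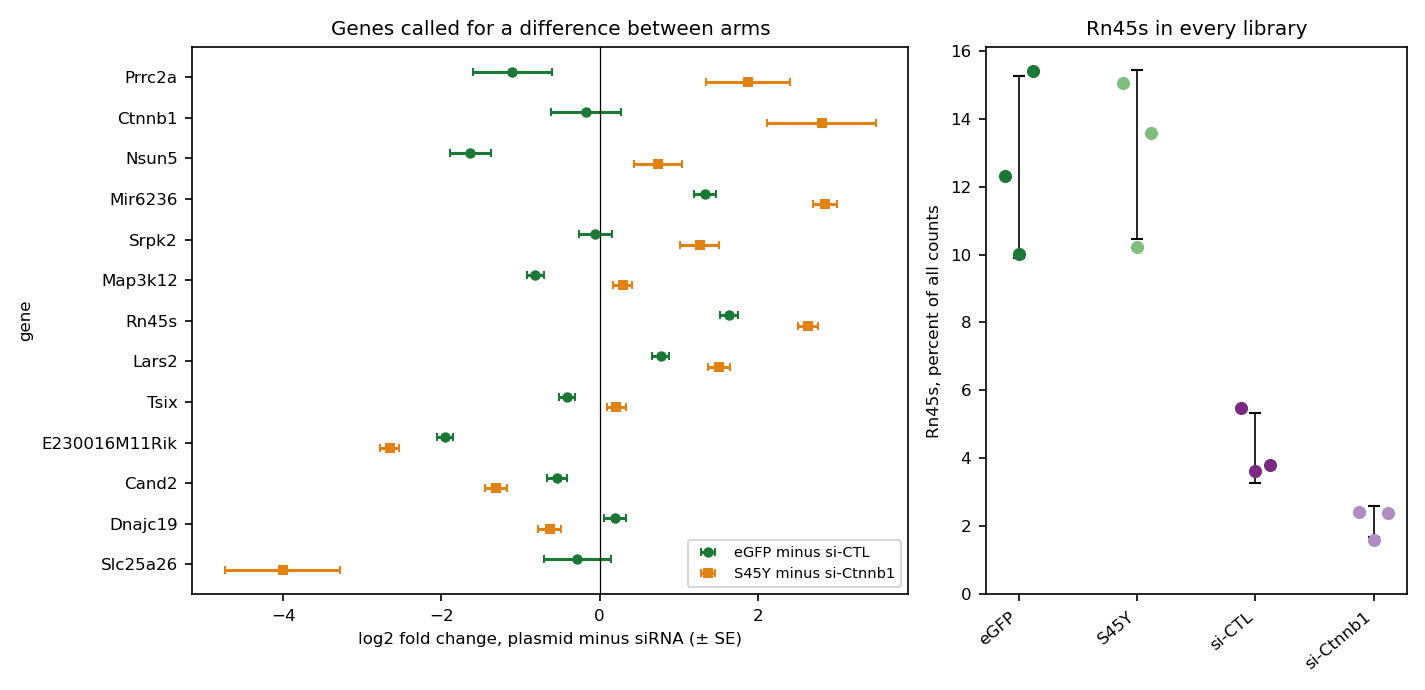
The left panel gives, for 13 of the 15 genes called for a difference between the arms, the log2 fold change of plasmid minus siRNA in the control arm (circles) and the modified arm (squares), with bars of ± SE from edgeR. The right panel gives the share of Rn45s in all counts of each library, with bars of ± SD of 3 libraries, between 10.03% and 15.4% in the plasmid libraries and between 1.61% and 5.49% in the siRNA libraries.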

How the data were processed

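All 12 libraries of the count table were used and grouped by their labels. Per the labels and the study's methods, the authors filtered reads with Trimmomatic 0.38, aligned them to mm10 with HISAT2 2.1.0 and counted them per gene with HTSeq 0.11.2. The deposited values are counts, whole numbers without normalization, for 24421 gene symbols, with replicates kept apart. The annotation and strand setting of the counting are not given in the sources used here. Positions and overlaps of exons were taken from GENCODE M21 on mm10 (24027 symbols matched, 98.4%), and promoter and microRNA sequences from RefSeq.

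The test was that of edgeR 4.0.16 in R 4.3.3: filterByExpr (minimum count 10, minimum total count 15), TMM scaling, and the quasi-likelihood test. The design had 4 groups in a single fit for the pooled comparison and for the difference between the arms. Each arm was fitted on its own 6 libraries. Adjusted p-values are Benjamini-Hochberg values over all genes tested. A group without counts was read as up to 3 counts over the group, and counting intervals are exact at 95%. Alternatives were DESeq2 1.42.0, other scalings and filters, thinning to 91468 counts, a fold threshold, the replicate number as a block, removal or summing of overlapped genes, and fits without each single library. The main edgeR fits were first run on simulated counts with known changes. The alternatives and the other steps were not.

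Named genes are, among those called the same way in both arms without overlap of the libraries, the 10 with the largest smaller change and the 5 with the highest mean CPM in each direction. To these come up to 5 genes for the difference between the arms, Ctnnb1, Rn45s, and up to 4 called members of each gene list by smallest p. Opposite-strand partners of these and the untested interferon-stimulated genes are named beside them. Sets of named promoters and motifs were chosen after the values were seen. The members and lists were chosen with earlier results of these data known. Results for a few genes are not reported here, though counts over all genes and lists include them.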

Additional observations from a re-analysis of the deposited data

Results flagged for a closer look

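The 13 genes below were singled out because the contrast of plasmid against siRNA differed between the modified arm and the control arm by the test of the difference itself (edgeR, adjusted over 2996 genes). Each value is the modified minus the control log2 fold change, which is also the effect of S45Y over eGFP minus that of si-Ctnnb1 over si-CTL. Of these genes, 5 were called the same way in both arms and differed only in size. Mir6236 (1.54), Rn45s (1.02) and Lars2 (0.76) rose in both arms and by more in the modified arm, and all 3 carry ribosomal RNA reads or lie at loci that are known to. E230016M11Rik (-0.67), which overlaps Gadd45a, and Cand2 (-0.75), which overlaps Rpl32, fell in both arms and by more in the modified arm.

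The other 8 were not called in both arms. The splicing-factor kinase gene Srpk2 (1.35) and the proline-rich RNA regulator gene Prrc2a (3.01) were higher in the plasmid libraries of the modified arm and did not pass in the control arm. Map3k12 (1.13), Nsun5 (2.39) and Tsix (0.65) were lower in the plasmid libraries of the control arm and did not pass in the modified arm. Slc25a26 (-3.69), the mitochondrial carrier of S-adenosylmethionine, had 2 counts in S45Y, at a ratio to si-Ctnnb1 of 0.0573 (counting interval 0.00685 to 0.212), and when summed with Lrig1 on the other strand its difference was -1.06 (adjusted p = 0.389). Dnajc19 (-0.80), a part of the mitochondrial import motor, was lower in the modified arm alone. Ctnnb1 (3.00) was the targeted gene.

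The differences of Map3k12 and Mir6236 passed under all 21 other settings tried for them, and that of E230016M11Rik under 20 of 21, failing with thinned libraries. Rn45s failed with DESeq2 (adjusted p = 0.206) and Nsun5 without S45Y replicate 1 (adjusted p = 0.0714). Ctnnb1 failed under 14 of 20, Cand2 and Dnajc19 under 9 of 21, Slc25a26 under 7 of 19, and Lars2, Srpk2, Tsix and Prrc2a under 6 or 7. Leaving out S45Y replicate 1 ended the call for 9 of the 13 genes, E230016M11Rik, Map3k12, Mir6236 and Rn45s being the exceptions.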

How the results depend on the processing

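Of the genes chosen by the naming rule or by the difference between arms, whose direction was otherwise kept, 6 turned when the counts of opposite-strand partners were summed (chosen after seeing the data): Tcp1 (-0.39), Ccne2 (-0.056), Becn1 (-0.72), Rpl5 (-0.16), Pcbp2 (-0.22) and Ctnna1 (-0.0071), each summed with a partner. Partners named only beside such a gene were not followed. Where a change of 1 on the log2 scale was also required, the calls were 216 in the control arm, 329 in the modified arm, 317 pooled and 106 in both arms. With overlapped genes left out, so that 1350 were tested, they were 127, 161, 265 and 66, with 4 for the difference. Other alternatives gave 290 to 437, 413 to 581, 600 to 935 and 164 to 272 calls. Leaving out 1 library gave 311 to 402, 424 to 503, 742 to 873 and 201 to 240, with 5 to 23 for the difference, 5 without S45Y replicate 1 and 23 without S45Y replicate 2. It was 8 when either si-CTL replicate 1 or si-Ctnnb1 replicate 3 was absent. The correlation of the arms was 0.154 without the filter on low counts, 0.701 with a minimum count of 20, and 0.445 to 0.637 with 1 library left out. Of 2274 other values for named genes, 2154 kept their direction and side of the threshold. Deviations from the group means correlated at -0.0252 to -0.0112 between same-numbered eGFP and si-CTL or S45Y and si-Ctnnb1 libraries. With means of 3 libraries and low counts, such values cannot show whether replicate numbers pair the samples. With the replicate number as a block, 348, 500, 841 and 205 genes were called, and 16 for the difference. Depth limits the genes tested: thinned to 91468 counts, 600 were called in the pooled comparison.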
